A study of Apostichopus japonicus with 12 samples.

Results

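The 100 most even transcripts of the sea cucumber respiratory tree were described across 4 treatments. They were chosen among features with AJAP identifiers whose mean over the 12 libraries lay from 20 to 200 FPKM, a unit in which reads are divided by the length of the feature and by the size of the library. These 4991 features were ranked by the standard deviation (SD) of log2(FPKM + 0.5) over the 12 libraries, and the 100 with the lowest SD were taken, of 59494 features in all. Their evenness is therefore the criterion of choice and is given as a description, without a test. The table listed 28586 AJAP and 30908 MSTRG identifiers and no gene names. None of either kind (0 AJAP and 0 MSTRG) was found in the RefSeq gene table used here, so members are given by identifier, with no function, and no marker of the tissue could be looked up.

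Transcript abundance was measured in ribosome-depleted total RNA of the respiratory tree of Apostichopus japonicus, in 3 libraries per group. The thermal group was kept at 26 °C, the hypoxic group at 2 mg/L dissolved oxygen and the combined group at 26 °C and 2 mg/L, and the control group is labelled as normal control. For the control group neither temperature nor oxygen is given in the sources used here, nor is the oxygen of the thermal group, the temperature of the hypoxic group or the length of exposure. Nothing says that replicates were separate animals, so spread and p-values describe these libraries and may be technical.

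The respiratory trees are branched tubes in the body cavity that sea cucumbers fill with sea water by pumping through the cloaca, and much of their oxygen is taken up across the walls. Sea water temperature and dissolved oxygen set the body temperature and oxygen supply of these animals directly, and both stresses are known to change the expression of many genes. Transcripts whose level stays even across treatments are of practical use, because quantitative PCR measures a target relative to reference genes that are assumed not to change. In bulk tissue an even level is a property of the whole sample: opposite shifts in cell number and in RNA per cell could cancel and cannot be told apart from no shift.

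Reads recovered from the FPKM values and summed over the features came to between 20384391 and 28424597 per library. They are reads assigned to features and are not read as sequencing depth. Over 46763 features (not independent of each other), log2 values of 2 libraries of the same group had a Pearson r between 0.849 and 0.894, and those of different groups between 0.809 and 0.883. Control replicate 3 stood lowest for the members, 0.06 below their mean on the log2 scale, and was also lowest for the 4891 other features of the same range, at -0.10. All 100 members had reads in all 12 libraries, with 256 reads as the lowest count, and all 100 passed the filter used for testing.

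The most even feature was AJAP15459. It held 24.2, 26.7 and 23.2 FPKM in the thermal libraries, 24.4, 23.9 and 23.4 FPKM in the hypoxic libraries, 22.3, 23.6 and 25.1 FPKM in the combined libraries, and 26.2, 24.4 and 23.4 FPKM in the control libraries. The SD over the 12 libraries was 0.0722 on the log2 scale, and the highest library was 1.20 times the lowest. All 4 groups overlapped, and thermal replicate 2 was highest and combined replicate 1 lowest.

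AJAP20335 had the smallest ratio of highest to lowest library of the 100, at 1.18. Its values were 34.6, 31.4 and 31.9 FPKM in thermal libraries, 32.4, 31.1 and 31.1 FPKM in hypoxic libraries, 31.6, 33.5 and 35.7 FPKM in combined libraries, and 33.1, 36.6 and 32.1 FPKM in control libraries. With 468 reads per library on average, counting error alone gave an SD of 0.0669 against the observed 0.0784, and an SD of 0.0409 was left after subtraction of its variance. AJAP17475, at rank 3, held 37.9, 40.7 and 36.3 FPKM in thermal libraries, 41.8, 41.7 and 37.9 FPKM in hypoxic libraries, 41.8, 36.7 and 37.3 FPKM in combined libraries, and 39.1, 34.4 and 39.0 FPKM in control libraries. It had more reads (2239 on average), and counting error of 0.0307 was a smaller part of its SD of 0.0897.

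AJAP11210 stood near 70 FPKM throughout, with 68.2, 64.1 and 70.9 FPKM in thermal, 77.6, 66.4 and 75.6 FPKM in hypoxic, 72.4, 71.2 and 76.4 FPKM in combined, and 71.9, 76.8 and 62.5 FPKM in control libraries. Its widest group was the control group, which held both a value above all thermal libraries and the lowest value of all 12. AJAP08442 held 45.6, 46.7 and 51.4 FPKM in thermal, 50.3, 49.2 and 44.3 FPKM in hypoxic, 47.1, 44.9 and 52.1 FPKM in combined, and 44.5, 45.4 and 40.5 FPKM in control libraries. The means of its stressed groups were 47.9 ± 3.11, 47.9 ± 3.18 and 48.0 ± 3.66 FPKM (SD, n = 3 each) in the thermal, hypoxic and combined groups, against 43.5 ± 2.59 FPKM in the control group. As deposited, the thermal libraries all lay just above the control libraries, while the hypoxic and combined libraries overlapped them.

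Ranks 6 and 7 were features of lower level. AJAP06631 held 31.5, 24.0 and 29.6 FPKM in thermal, 26.6, 29.5 and 27.8 FPKM in hypoxic, 29.8, 28.0 and 29.1 FPKM in combined, and 27.8, 28.5 and 25.2 FPKM in control libraries. The thermal group alone spanned its whole range. AJAP13642 held 23.8, 20.9 and 21.4 FPKM in thermal, 22.6, 22.5 and 25.01 FPKM in hypoxic, 20.2, 22.3 and 24.0 FPKM in combined, and 19.9, 22.5 and 19.6 FPKM in control libraries. Control replicates 1 and 3 were its lowest libraries, while control replicate 2 was level with the hypoxic group.

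AJAP06978 and AJAP03908 were the only ones of the first 10 with means above 100 FPKM. AJAP06978 held 125, 112 and 116 FPKM in thermal, 131, 129 and 128 FPKM in hypoxic, 111, 134 and 131 FPKM in combined, and 112, 115 and 108 FPKM in control libraries. All 3 of its hypoxic libraries lay above all 3 control libraries, and 56.2% of its small spread lay between groups. AJAP03908 held 97.5, 107 and 112 FPKM in thermal, 106, 125 and 128 FPKM in hypoxic, 117, 114 and 99.9 FPKM in combined, and 110, 115 and 111 FPKM in control libraries. Its control libraries were the closest together and lay inside the range of the hypoxic group. AJAP13968, at rank 10, held 51.9, 39.7 and 52.0 FPKM in thermal, 48.4, 47.8 and 46.8 FPKM in hypoxic, 42.5, 46.5 and 43.1 FPKM in combined, and 43.2, 48.3 and 45.4 FPKM in control libraries, and its lowest and 2 highest libraries were all thermal.

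**Figure D1:**
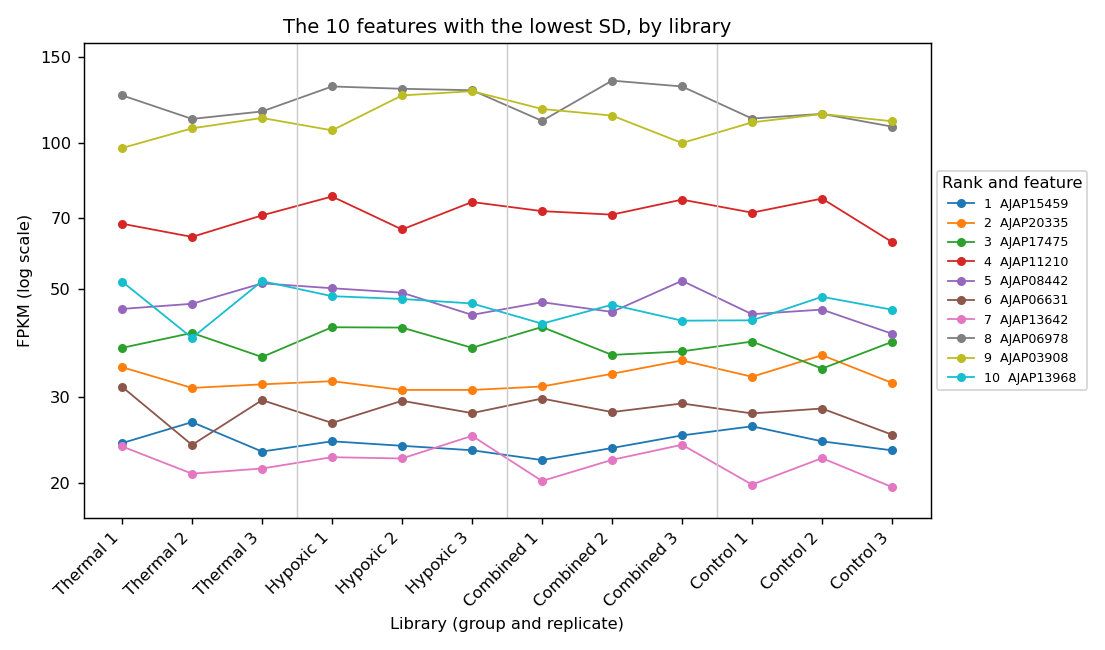
FPKM (log scale, vertical) of the 10 features with the lowest SD in each of the 12 libraries (horizontal), 1 coloured line per feature and 1 point per library, with grey lines between groups. The lines run nearly flat, and the highest point of AJAP15459 is 1.20 times its lowest.

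Over the 100 members the SD ran from 0.0722 to 0.172 on the log2 scale, with a median of 0.152. The 4891 other features of the same range had a median SD of 0.434 and reached 4.27. The highest library of a member was between 1.18 and 1.63 times its lowest, with a median of 1.43. In 15 members that ratio was above 1.5 and in 0 it was above 2, while 78.7% of the other features exceeded 2. The list thus forms the lower edge of a continuous spread, and the values on either side of its end were nearly the same.

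The last members were AJAP09074 (SD 0.171), AJAP00608 (SD 0.172) and AJAP29507 (SD 0.172). AJAP29507 held 21.2, 19.9 and 24.5 FPKM in thermal, 25.4, 24.5 and 27.2 FPKM in hypoxic, 18.8, 25.3 and 24.5 FPKM in combined, and 22.8, 20.2 and 26.7 FPKM in control libraries. The first features beyond the end of the list were AJAP02617, AJAP28976 and AJAP27438, each with an SD of 0.173. AJAP02617 held 33.8, 35.4 and 32.5 FPKM in thermal, 31.2, 37.9 and 38.8 FPKM in hypoxic, 44.7, 28.6 and 32.5 FPKM in combined, and 32.1, 31.2 and 36.7 FPKM in control libraries. Only 5.85% of its spread lay between groups, and its combined group held both its highest and its lowest library.

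**Figure D2:**
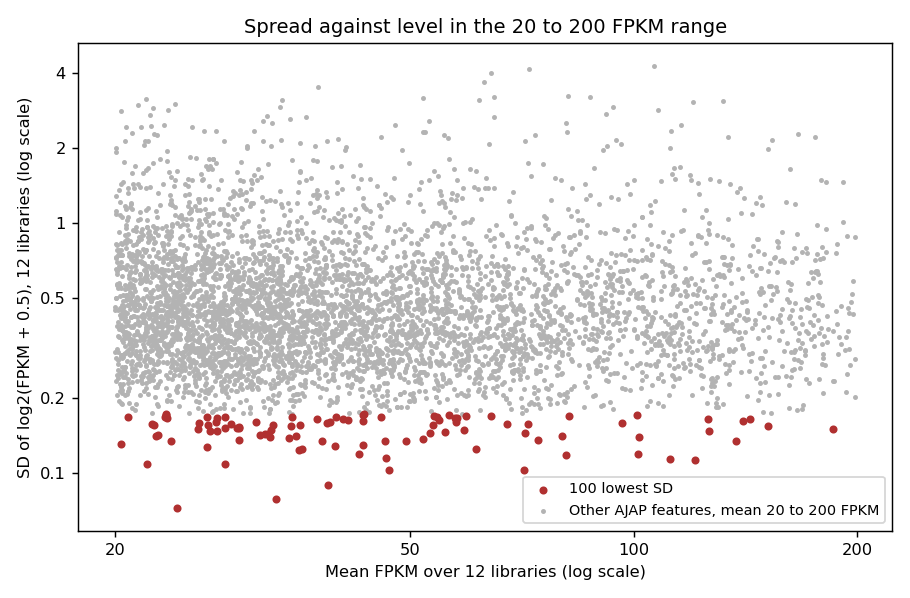
SD of log2(FPKM + 0.5) over the 12 libraries (vertical, log scale) against mean FPKM (horizontal, log scale) for the 100 members in red and the 4891 other AJAP features of the same range in grey, 1 point per feature. Members lie along the whole range of levels under an SD of 0.172, directly below a dense cloud with a median of 0.434.

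Member levels covered most of the range allowed, from a mean of 20.4 FPKM in AJAP10451 to 185 FPKM in AJAP29062. The median was 39.3 FPKM, against 38.4 FPKM in the other features, and 30 members had a mean under 30 FPKM and 12 a mean over 100 FPKM. AJAP29062 held 200, 175 and 216 FPKM in thermal, 178, 191 and 178 FPKM in hypoxic, 193, 221 and 181 FPKM in combined, and 157, 164 and 171 FPKM in control libraries. At the deposited scaling every stressed library was above every control library in this feature, so an SD of 0.150 did not mean that the groups overlapped. With median-of-ratios scaling control replicate 3 lay above thermal replicate 2 and hypoxic replicate 3, and this separation was lost. AJAP10451 held 19.7, 18.9 and 20.9 FPKM in thermal, 20.7, 19.9 and 20.1 FPKM in hypoxic, 16.7, 20.3 and 19.8 FPKM in combined, and 23.7, 23.7 and 19.9 FPKM in control libraries. Here the pair of libraries at 23.7 FPKM were both controls, but control replicate 3 lay among the stressed libraries.

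Feature length, which the choice did not use directly, differed between the members and the other features. Lengths recovered with the reads ran from 441 to 7074 bases in the members, with a median of 1778 bases, against a median of 966 bases in the other features. Of the lengths of AJAP features with reads in 4 or more libraries, 93.2% were multiples of 3 (33.4% for MSTRG features, and 95% for the members), so these are read as coding lengths without untranslated regions. When the 4991 features were divided into 4 length classes of nearly equal size, the shortest class (151 to 582 bases) contained 5 members, or 0.403%. The longest class (1563 to 13386 bases) contained 59 members, or 4.72%, and the classes between contained 17 and 19. With level the counts lay closer together, and 4 such classes from low to high contained 19, 28, 32 and 21 members.

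**Figure D3:**
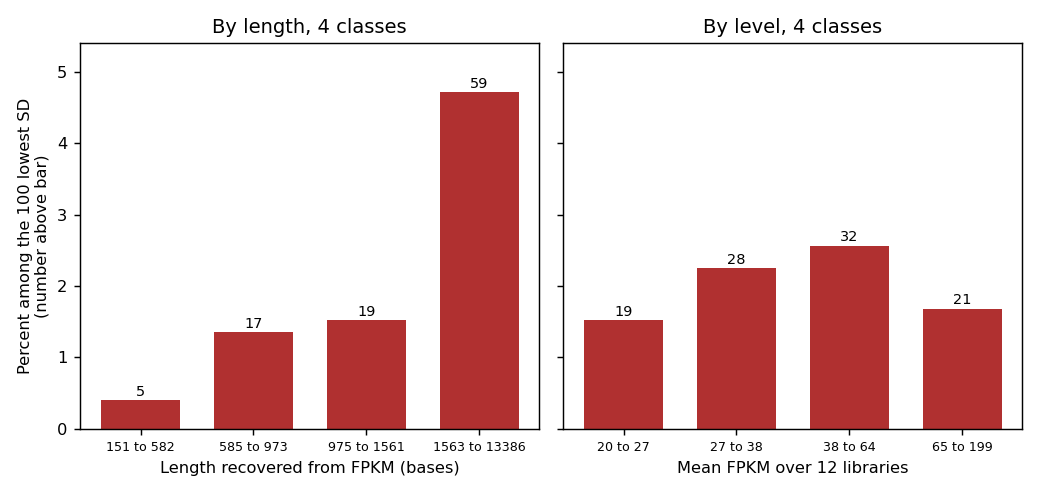
Percent of features that were among the 100 members (vertical), in 4 nearly equal classes of the 4991 AJAP features by recovered length in bases (left) and by mean FPKM (right), with the number of members above each bar. The longest class holds 59 members and the shortest 5, whereas the classes by level hold between 19 and 32.

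Longer features collect more reads at the same FPKM, so the counting error behind each value was computed from the recovered reads. Members had a median of 1644 reads per library, against 927 in the other features, and a median counting SD of 0.0359 on the log2 scale, against 0.0515. Counting error made up a median of 5.93% of a member's variance (1.32% in the other features) and over 25% in 5 members. After its subtraction the median SD was 0.145 in the members and 0.430 in the other features. Over all 4991 features the median SD was 0.360 in the longest class and 0.518 in the shortest, and after the subtraction 0.358 and 0.512. This difference between classes was not tested.

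The longest member, AJAP29853 (7074 bases), held 67.4, 58.3 and 68.4 FPKM in thermal, 52.2, 51.8 and 56.8 FPKM in hypoxic, 58.8, 65.2 and 58.6 FPKM in combined, and 49.7, 63.6 and 57.9 FPKM in control libraries. As deposited, the thermal libraries all lay above the hypoxic ones, while the control group spanned most of both. The shortest member, AJAP08037 (441 bases), held 32.0, 29.1 and 28.7 FPKM in thermal, 25.6, 33.8 and 32.0 FPKM in hypoxic, 35.4, 26.9 and 36.9 FPKM in combined, and 27.8, 33.1 and 30.3 FPKM in control libraries. It rested on 313 reads per library, and its counting SD of 0.0822 was the highest of the members, against an observed SD of 0.161.

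Each stress was then set against the control group, to see how far the members moved with heat, low oxygen or both. One limma model of all 46763 features tested, with Benjamini-Hochberg adjustment and a threshold of 0.05, called 0 members under heat, 0 under low oxygen, 0 under both and 0 for any difference among the 4 groups. The same model called 0.0171%, 0.408% and 1.88% of all features under heat, low oxygen and both, and 0.712% for any difference. At an unadjusted p under 0.05 it also gave 0 members in each, against 10.3%, 13.5% and 15.6% of all features under heat, low oxygen and both, and 15.8% for any difference. limma's voom on the recovered reads called 0 members in each, against 0%, 0.135%, 0.86% and 0.259% of all features in the same order. At an unadjusted p under 0.05 voom gave 0, 1, 1 and 0 members, against 10.1%, 12.7%, 14.6% and 14.5% of all features. With median-of-ratios scaling of the libraries limma gave 1, 3, 0 and 0 members at that p, against 10.1%, 13.8%, 15.9% and 15.9%. Because the same libraries chose the members, these counts are a description and nothing is read from them.

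The model's intervals were wide for features this even. Limma moves each feature's residual SD towards that of features of similar level, and the median residual SD of the members, 0.135, became 0.237. The median half-width of a member's 95% interval for a log2 difference was then 0.42. That interval lay within a change of 1.5-fold in either direction for 65 members under heat, 69 under low oxygen and 75 under both. For the others a change of 1.5-fold lay inside the interval, so a missing call does not show that they were unchanged. The intervals were fitted to the same libraries that chose the members, so they may not cover at the stated 95%. The counts within 1.5-fold are therefore a description and do not show that those members were unchanged either.

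The differences themselves were small, as the choice by a low SD over the same libraries requires, and their sizes are a description. Under heat the members differed from control by a median absolute log2 difference of 0.12, against 0.42 over all features tested and 0.30 over the other features of the same range. Under low oxygen the medians were 0.11 for members, 0.46 over all features and 0.39 over the others, and under both stresses 0.10, 0.48 and 0.39. A difference under 0.2 on the log2 scale was found for 83 members under heat, 78 under low oxygen and 84 under both, against 25.6%, 23.9% and 23.2% of all features tested. The farthest member in any comparison was 1.28-fold from control.

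Direction was mixed. Under heat 61 members were higher and 39 lower, but with median-of-ratios scaling of the libraries 45 were higher and 55 lower. Under low oxygen 59 were higher and 41 lower (75 and 25 with that scaling), and under both stresses 58 and 42 (59 and 41). All 3 thermal libraries lay above all 3 control libraries in 8 members, against 8.42% of all features tested, and below in 5 members, against 6.45%. Hypoxic libraries lay all above in 13 members, against 8.69%, and all below in 7, against 10.1%. Combined libraries lay all above in 8 members, against 9.59%, and all below in 10, against 10.4%. With median-of-ratios scaling the thermal libraries lay all above in 3 members and all below in 15, against 7.23% and 7.64% of all features under that scaling. Hypoxic libraries then lay all above in 19 and all below in 4, against 9.37% and 9.74%, and combined libraries in 8 and 6, against 9.83% and 10.3%. The counts thus moved with the scaling, and nothing is read from them about the members.

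**Figure D4:**
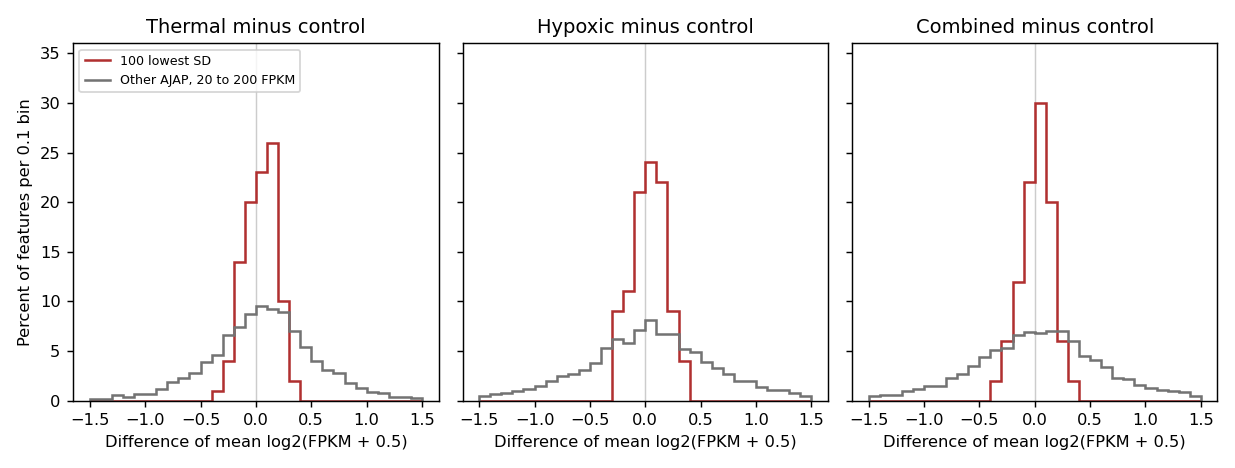
Percent of features per 0.1 bin (vertical) by difference of mean log2(FPKM + 0.5) from control (horizontal, log2 units) under heat (left), low oxygen (middle) and both (right), for the 100 members in red and the 4891 other AJAP features of the same range in grey. The members lie between -0.35 and 0.36 in all 3 panels, and the other features spread past both ends of the axis. The choice by a low SD itself limits how far members can lie from control.

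Under heat the member with the largest positive difference was AJAP22381. It held 50.1, 44.4 and 40.3 FPKM in thermal, 42.5, 45.8 and 40.9 FPKM in hypoxic, 39.2, 41.2 and 37.8 FPKM in combined, and 34.1, 36.6 and 34.2 FPKM in control libraries. All 9 stressed libraries lay above the 3 control libraries. The log2 difference was 0.35 under heat (95% interval -0.04 to 0.75), 0.30 under low oxygen and 0.17 under both.

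The reverse arrangement was seen in AJAP24672, which had the lowest difference both under heat and under low oxygen. Its values were 56.1, 53.4 and 51.3 FPKM in thermal, 50.4, 52.9 and 61.4 FPKM in hypoxic, 56.3, 56.7 and 52.8 FPKM in combined, and 63.9, 75.6 and 62.4 FPKM in control libraries. All stressed libraries lay below the control libraries, with hypoxic replicate 3 closest to them. The log2 difference was -0.32 under heat (95% interval -0.71 to 0.07), -0.29 under low oxygen (-0.68 to 0.10) and -0.28 under both.

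AJAP29627 had the largest positive difference under low oxygen. It held 55.1, 55.6 and 54.9 FPKM in thermal, 67.5, 64.3 and 70.2 FPKM in hypoxic, 57.8, 54.0 and 52.1 FPKM in combined, and 60.1, 48.4 and 49.7 FPKM in control libraries. Its hypoxic libraries lay above all 9 others, while the combined group, also at 2 mg/L, overlapped the control group. The log2 difference from control was 0.36 under low oxygen (95% interval -0.03 to 0.74), 0.07 under heat and 0.06 under both.

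Under both stresses AJAP11519 had the largest positive difference, 0.32 (95% interval -0.08 to 0.73). It held 31.9, 41.6 and 36.8 FPKM in thermal, 34.6, 33.3 and 35.9 FPKM in hypoxic, 39.9, 38.8 and 39.4 FPKM in combined, and 28.9, 32.1 and 33.3 FPKM in control libraries. The combined libraries lay close together and above all control libraries. The lowest difference under both stresses was that of AJAP17257, at -0.35 (95% interval -0.71 to 0.01), with 149, 142 and 171 FPKM in thermal, 139, 141 and 150 FPKM in hypoxic, 141, 130 and 137 FPKM in combined, and 175, 174 and 173 FPKM in control libraries. As deposited, its control libraries were nearly identical, at 174 ± 0.671 FPKM (SD, n = 3), and all stressed libraries lay below them. The median-of-ratios factors of the control libraries were 1.04, 1.04 and 0.922. With that scaling its control libraries lay farther apart, and all stressed libraries still lay below them.

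The spread that members kept was divided into a part between groups and a part between replicates of a group. The share between groups ran from 0.353% to 81.8%, with a median of 31.3%. Groups account for 3 of the 11 degrees of freedom, or 27.3%. The median was 44.2% in the other features of the same range and 33.2% over all features tested. In 22 members more than 50% of the spread lay between groups, against 41.5% of the other features. These shares come from the same values that chose the members, so the comparison is a description. The median SD between replicates, which is part of the SD that chose the members, was 0.135 in the members and 0.362 in the other features.

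At the low end of this share stood AJAP11292, with group means of 38.3 ± 4.93 FPKM in thermal, 37.7 ± 4.53 FPKM in hypoxic, 38.1 ± 4.34 FPKM in combined and 37.8 ± 2.18 FPKM in control libraries (SD, n = 3 each). Its replicates ran from 33.1 to 42.9 FPKM within the thermal group alone. Without thermal replicate 2, its lowest thermal library, the share was 13.0%. At the high end stood AJAP26887, which held 44.0, 47.5 and 47.0 FPKM in thermal, 54.2, 46.7 and 45.6 FPKM in hypoxic, 38.6, 39.4 and 36.5 FPKM in combined, and 40.9, 37.2 and 39.6 FPKM in control libraries. As deposited, each stress alone lay above the control group with no overlap, and the combined group overlapped the control group. With median-of-ratios scaling its share was 68.4%, and its thermal and control groups overlapped.

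When the 4 group means of a member were ordered, the control group was lowest in 39 members and highest in 19. The thermal group was lowest in 20 and highest in 29, the hypoxic group lowest in 19 and highest in 29, and the combined group lowest in 22 and highest in 23. The control group was also the one most often lowest among the other features, in 33.8%. Control replicate 3 was the lowest single library of 16 members and the lowest of 14.8% of the other features. After median-of-ratios scaling it was lowest in 4 members, and control replicate 2 was lowest in 18.

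Members did not vary as a block. The median Pearson correlation between 2 members over the 12 libraries was 0.04, with the 5th and 95th percentiles at -0.51 and 0.54, and the same figures for the other features were 0.01, -0.58 and 0.60. These libraries are shared by all pairs, and the values are a description. The first principal component took 16.9% of the members' variance, with its largest weight on control replicate 3, against 27.7% in the other features. Summed over the 100 members, FPKM came to 5224 ± 161 in the thermal, 5189 ± 138 in the hypoxic, 5149 ± 126 in the combined and 5092 ± 128 in the control group (SD, n = 3 each). The coefficient of variation of this sum over the 12 libraries was 2.5%, and members took between 0.999% and 1.11% of a library's reads.

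To describe evenness in libraries left out of the choice, the 100 features were chosen again from 9 libraries with 1 group left out. The left-out group was then compared with the 9. With the thermal group left out, the chosen features departed by a median of 0.12 on the log2 scale in that group, against 0.23 in the other features of the range. With the hypoxic group left out the departures were 0.19 and 0.30, with the combined group 0.11 and 0.26, and with the control group 0.18 and 0.32. A departure under 0.2 was found in 70, 56, 72 and 53 of the 100 chosen features with the thermal, hypoxic, combined and control groups left out. The shares of the other features were 45.7%, 34.5%, 40.2% and 34.3%. By this measure the chosen features departed less than the others. The departure also holds the spread of the 9 libraries, which the choice itself made smaller in the chosen features. The left-out mean lay inside the range of the 9 libraries in 70, 50, 81 and 49 chosen features, in the same order. Among the other features the shares were 92.9%, 83.2%, 87.9% and 80.7%, with ranges that the choice had not narrowed. The SD between replicates inside the left-out group used no library of the choice. Its median was 0.168, 0.134, 0.163 and 0.182 in the chosen features, in the same order. In the other features it was 0.308, 0.305, 0.312 and 0.324. That SD covers spread between replicates and not differences between treatments. All these readings are a description.

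**Figure D5:**
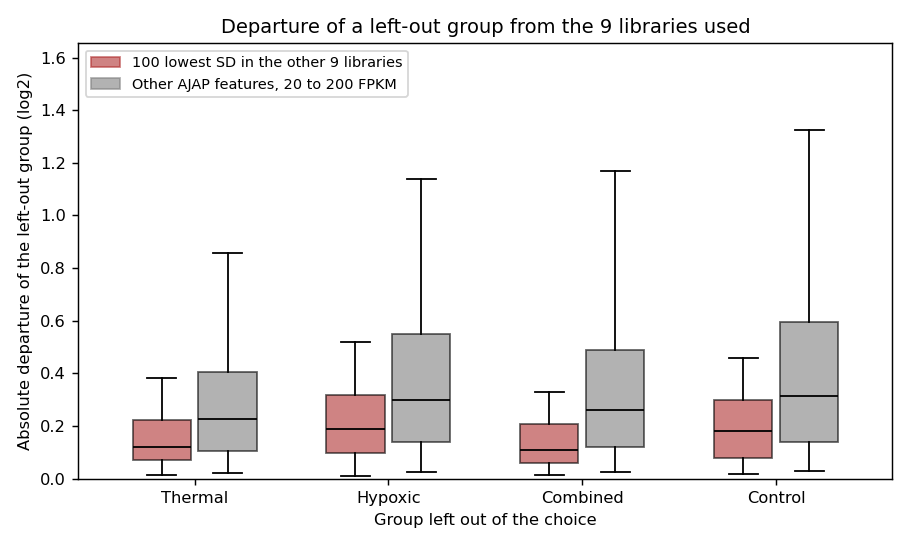
Absolute departure (vertical, log2) of a left-out group (horizontal) from the mean of the other 9 libraries, for the 100 features with the lowest SD in those 9 (red) and the other AJAP features of the range (grey). Boxes give the median and quartiles and whiskers the 5th and 95th percentiles over features. The red medians are 0.12, 0.19, 0.11 and 0.18 from left to right, each under its grey partner.

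Some features that were even in 9 libraries were far off in the group not used. With the hypoxic group left out the farthest was AJAP03814, which lay lower there by a log2 departure of -0.85. With only hypoxic replicate 1 left out it was again the farthest, at -2.30, so the departure rested on that library. The farthest with the thermal group left out was AJAP26383 at 0.58, with the combined group AJAP13375 at -0.64, and with the control group AJAP22514 at -0.70. These 4 features were named after their values were seen.

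The lists chosen from 9 libraries shared 66, 52, 63 and 49 features with the members when the thermal, hypoxic, combined and control groups were left out. Leaving out 1 library kept between 72 (control replicate 3) and 89 (thermal replicate 2) members. Ranking MSTRG features along with AJAP features kept 98 members and brought in 2 MSTRG features, from 943 in the same range, whose median SD was 0.545. Median-of-ratios scaling kept 60, and ranking by the 4 group means alone kept 23. Over 26 such alternatives 8 members were always kept, 6 of them among the first 10.

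Those 6 were AJAP15459, AJAP20335, AJAP17475, AJAP11210, AJAP06631 and AJAP13968, and the other two, named after their values were seen, were AJAP30089 and AJAP01257. AJAP30089 held 41.0, 40.6 and 49.6 FPKM in thermal, 42.6, 41.4 and 43.8 FPKM in hypoxic, 43.9, 40.6 and 38.4 FPKM in combined, and 49.5, 41.1 and 38.4 FPKM in control libraries. AJAP01257 held 104, 112 and 93.1 FPKM in thermal, 104.0, 103.1 and 92.1 FPKM in hypoxic, 92.7, 114 and 107 FPKM in combined, and 92.8, 109 and 91.3 FPKM in control libraries. In both features the 4 groups overlapped, and 8.31% and 11.2% of their spread lay between groups. All 10 first-ranked members were kept whichever single library was left out and also with median-of-ratios scaling, under which AJAP15459 had an SD of 0.107 and rank 5, AJAP20335 an SD of 0.104 and rank 3, and AJAP17475 an SD of 0.155 and rank 72.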

How the data were processed

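RNA sequencing libraries of 12 respiratory tree samples in 4 groups were analysed from the authors' deposited FPKM values, with each library in its own column. Per the labels' protocols, ribosomal RNA was removed and strand was marked. The tools listed, per the submitters' processing notes, are TopHat2 2.0.12, Bowtie2 2.2.3, DESeq 1.16 and Cufflinks. What each did, the build, the annotation and how reads were counted is not given in the sources used here, so near-identical, overlapping or antisense features may share reads.

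Library totals and feature lengths were found as the values that turn FPKM into whole reads. At a tolerance of 0.001 reads 100% of 59494 features gave whole reads, and 0% of 3000 with wrong totals did. Reads summed to between 99.98% and 99.99% of the totals. Counting SDs cover counting error only.

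Features that reached 0.5 FPKM in 3 or more libraries were fitted in limma 3.58.1 (R 4.3.3) on log2(FPKM + 0.5) with a mean per group and a variance trend. The added 0.5 FPKM understates changes of low features. Summaries used Python 3.11.15, numpy 2.4.6, pandas 2.3.3 and numba 0.67.0, and figures matplotlib 3.10.9. Median-of-ratios scaling used features above 0 in every library. The fit and the recovery were tested on simulated data. Members, lists and tests were chosen with earlier results of these data known. Named members are ranks 1 to 10, the 3 ranks on either side of the list's end, the largest differences from control in each direction, and the extremes of level, length and share between groups. Alternatives are given in the closing section.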

Additional observations from a re-analysis of the deposited data

Results flagged for a closer look

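AJAP26887 was singled out at the deposited scaling. There its 3 thermal libraries all lay above the 3 control libraries, while its 3 combined libraries all lay below the 3 hypoxic libraries. The log2 difference with heat was 0.23 in the thermal against the control group and -0.35 in the combined against the hypoxic group. The difference between these was not tested. It was the only such member of 100, and 38 of the 4891 other features of the range crossed in the same way and 10 in the opposite way. The median-of-ratios factors were 1.04 for thermal replicate 1 and 0.922 for control replicate 3. With that scaling thermal replicate 1 of AJAP26887 lay below control replicate 3, so its thermal and control groups overlapped and the crossing was lost.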

How the results depend on the processing

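Members called stayed at 0 in the 4 comparisons under each alternative tried, including each library left out, and at an unadjusted p under 0.05 they numbered at most 3, under low oxygen with median-of-ratios scaling, against 13.8% of all features there. The counts over all features moved. Under heat they were 8 as reported, 19 with no filter, and 0 with a pseudocount of 0.1, a filter at 2 FPKM, a replicate block, voom on recovered reads, median-of-ratios scaling, or scaling to the members' mean level, which was chosen after seeing the data. Under low oxygen they were 191, 89 with no filter, 79 with the replicate block and 63 with voom. Under both they were 881, 562 with no filter and 402 with voom. For any difference they were 333, 176 with no filter, 90 with the replicate block and 121 with voom. Whether the replicate numbers pair the libraries is not given in the sources used here. Same-numbered libraries of different groups had correlations of deviations from -0.080 to 0.086, and differently numbered ones from -0.056 to 0.079. A pairing with little effect on expression would look the same, so these values cannot settle it. Leaving out 1 library gave 0 to 2 features under heat, 0 (without hypoxic replicate 1 or 2) to 242 under low oxygen, 135 (without combined replicate 2) to 1016 under both, and 58 (without control replicate 1) to 501 for any difference.

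Members' medians moved less than their jackknife error with a pseudocount of 0.1 or 1 and with median-of-ratios scaling. Leaving out 1 library gave 0.146 to 0.154 for the SD and 33.0% to 39.8% (without combined replicate 3) for the share between groups. All these shares were above the 31.3% of all 12 libraries. Leaving out a library takes 1 degree of freedom from within the groups, which by itself raises the share. The absolute differences ran from 0.11 to 0.13 under heat, 0.10 to 0.14 under low oxygen and 0.09 to 0.12 under both. The list was less settled: 60 members were kept with median-of-ratios scaling, 46 by SD within groups, 23 by SD over group means, and 66, 52, 63 and 49 without the thermal, hypoxic, combined and control groups. Leaving out 1 library kept 72 to 89. Of 270 values of named members under alternatives, 10 moved beyond their error. Of these, 8 were SDs of ranks 1 to 10 that were larger with median-of-ratios scaling, so 8 of those 10 SDs moved with it. For SDs and shares the error was a jackknife over the same left-out libraries. Leaving out 1 library can hardly exceed that error, so the low count says little about how settled these values are.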
